A study of Gallus gallus with 12 samples.

Results

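The cartilage collagens described here are the products of 6 chicken genes, COL2A1 for type II, COL9A1, COL9A2 and COL9A3 for type IX, and COL11A1 and COL11A2 for type XI. They were taken by gene symbol from the gene-level count lists, where all 6 were found among 21350 listed features. All 6 were also among the 18979 features that passed a filter on low counts, and the smallest count of any of them in any library was 215, for COL11A2 in OSR1 replicate 1.

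The cultures were high-density droplets of mesenchymal cells from limb buds of E4.5 Lohmann Selected Leghorn chick embryos, kept for 5 days, a system in which limb mesenchyme forms cartilage. Before plating, the cells of every group were infected with the avian retroviral vector RCAS-BP(A). The vector carried the coding sequence of OSR1 or OSR2 (zinc-finger factors of the odd-skipped family), of EGR1 (an early growth response zinc-finger factor), or of KLF2 or KLF4 (Krüppel-like zinc-finger factors), with the inserts labelled RCAS-BP(A)-OSR1-3F, RCAS-BP(A)-OSR2-3F, RCAS-BP(A)-EGR1-3F, RCAS-BP(A)-KLF2-3F and RCAS-BP(A)-KLF4-3F. The Control group carried RCAS-BP(A)-empty, so infection itself was common to all. Each of the 6 groups had 2 libraries, and each RNA extract pooled 6 whole cultures, so every value is an average over all cell types present. Fewer cartilage cells and less collagen RNA per cell cannot be told apart in such samples.

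Totals ran from 74139243 to 106079374 counts in the factor libraries and were 51233721 and 59297870 in the Control libraries. Each overexpressed gene stood above all other libraries in its own pair, from KLF4 with 1176 to 1292 CPM against 15.8 to 35.0 CPM in the other 10 libraries, up to EGR1 with 7448 to 9335 CPM against 93.3 to 143 CPM in the other 10. Levels are in CPM, counts scaled to a common library size. They are not divided by transcript length, so levels are compared between samples for a gene and never between genes. The limb mesenchyme markers were detected, with all 8 markers above 0 and summed levels of 1270 to 1740 CPM in the factor libraries and 1080 to 1110 CPM in the Control libraries.

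Cartilage fibrils are heteropolymers. Type II collagen, a trimer of the COL2A1 product, makes up their bulk. Type XI collagen nucleates the fibril and limits its width; its molecules combine the COL11A1 and COL11A2 chains with a further chain that is also encoded by COL2A1. Type IX collagen does not form fibrils alone: it combines the COL9A1, COL9A2 and COL9A3 chains and is cross-linked to the fibril surface. SOX9, with SOX5 and SOX6, is the transcription factor group known to activate these genes in chondrocytes. COL11A1 is also made outside cartilage, where its chain can join type V chains. COL9A1 has alternative start sites, which gene-level counts do not separate.

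In the cultures infected with OSR1 or OSR2 all 6 genes fell, and the 3 type IX genes and COL11A2 had lower fitted values than COL2A1 and COL11A1. In exact permutation tests over the 6 groups, the ratio of COL9A1 to COL2A1 differed (adjusted p = 0.013). Those of COL9A2, COL9A3 and COL11A2 to COL2A1 did not pass (adjusted p = 0.061, 0.06 and 0.076). The COL9A1 call was lost without the 2 Control libraries (adjusted p = 0.086) and without either OSR2 replicate. These tests span all 6 groups and do not single out the OSR cultures. The order of these chains against COL2A1 in the OSR cultures is thus not settled. With EGR1, KLF2 and KLF4 fewer of the 6 genes changed. COL9A1, COL9A3 and COL11A1 fell with both KLF factors, while COL9A2 and COL11A2 were not called and had estimates above Control. Of the ratios within a type, that of COL9A1 to COL9A3 differed over the 6 groups (exact permutation, adjusted p = 0.0043). Those of COL9A1 to COL9A2, COL9A2 to COL9A3 and COL11A1 to COL11A2 did not pass (adjusted p = 0.084, 0.18 and 0.061). Whether COL9A2 and COL11A2 moved apart from their partner chains is thus not settled. COL2A1 alone of the 6 rose with EGR1, where 24.6% of all tested genes rose. That call was lost without Control replicate 1 and without EGR1 replicate 1. A gene is called here at a Benjamini-Hochberg adjusted p under 0.05 in edgeR's quasi-likelihood test, and the 5 comparisons with Control share the same 2 Control libraries. Each log2 fold change was recomputed under 19 alternatives of processing or of libraries left out; those that end a call are named, and those that make one are named or counted.

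COL2A1 encodes the bulk chain of the fibril. Its level was 1704 and 1624 CPM in the OSR1 libraries, 1116 and 1039 CPM in the OSR2 libraries, 7595 and 5798 CPM in the EGR1 libraries, 5214 and 3958 CPM in the KLF2 libraries, 5011 and 4112 CPM in the KLF4 libraries, and 3887 and 5100 CPM in the Control libraries. Both OSR pairs lay below every other library, both EGR1 libraries lay above every other library, and the KLF2 and KLF4 pairs overlapped the Control pair. In group order the level ran from EGR1 through KLF2, KLF4 and Control to OSR1 and OSR2. Of these neighbouring steps the one from Control to OSR1 was the only call by edgeR's test. The step from EGR1 to KLF2 was called in 2 of the 19 alternatives, by DESeq2 (adjusted p = 0.024) and without KLF2 replicate 1. The log2 fold change over Control was -1.43 (SE 0.184) for OSR1, with an adjusted p of 0.00021, and -2.06 (SE 0.188) for OSR2, with an adjusted p of 1.9e-05. For EGR1 it was 0.58 (SE 0.181), with an adjusted p of 0.026. That call was lost without Control replicate 1, where the value was 0.40 and the adjusted p 0.18, and without EGR1 replicate 1, where it was 0.37 and 0.20; it held in 17 of the 19 alternatives, with adjusted p-values from 0.0058 to 0.20. For KLF2 and KLF4 the values were 0.03 and 0.02, with 95% intervals of -0.37 to 0.43 and -0.38 to 0.42.

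**Figure D1:**
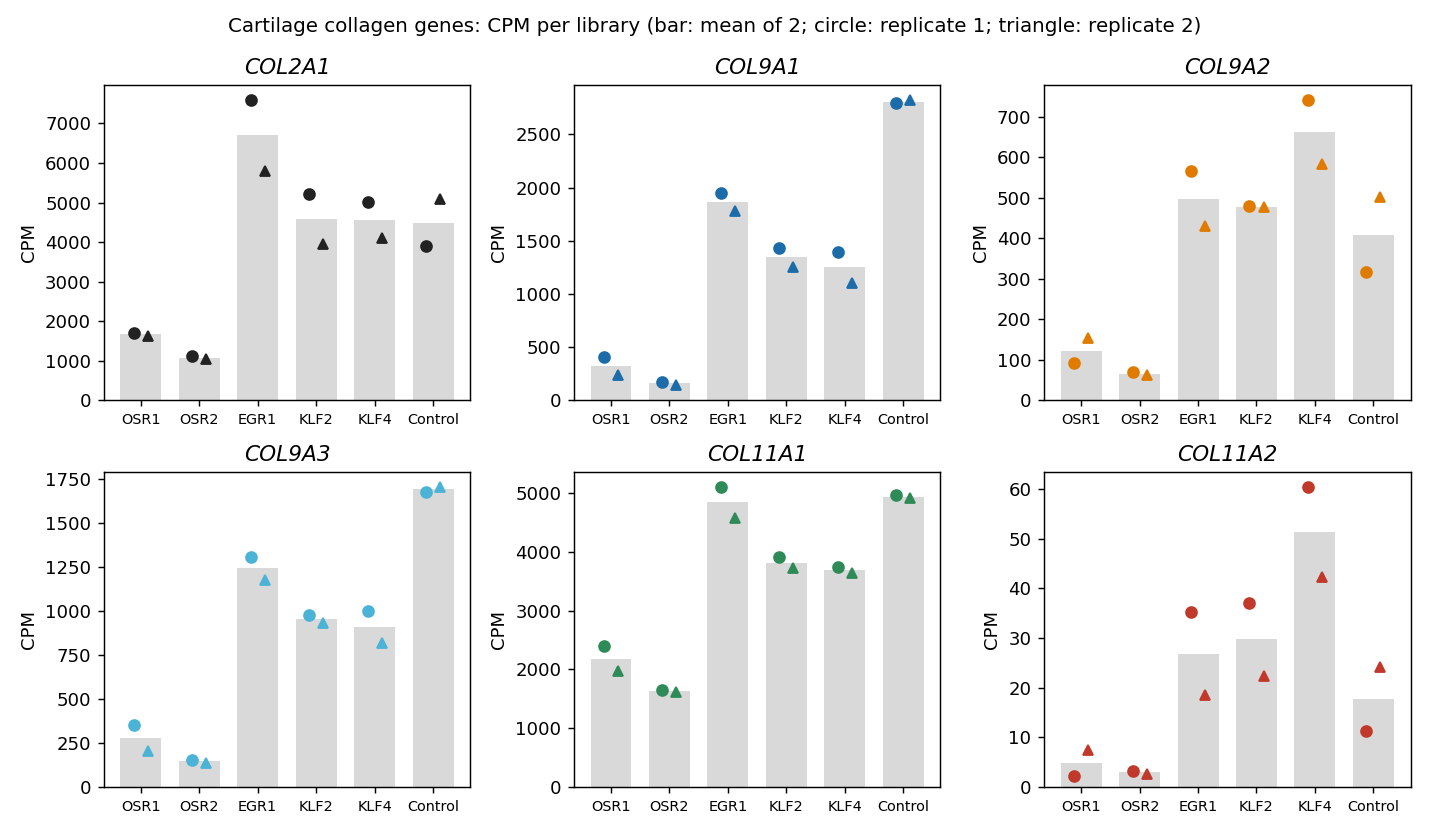
Level of the 6 cartilage collagen genes in CPM (vertical axis, from 0, with its own scale in each panel) in the OSR1, OSR2, EGR1, KLF2, KLF4 and Control groups; bars are means of 2 libraries, circles replicate 1 and triangles replicate 2. The OSR1 and OSR2 libraries were the lowest 4 of 12 for every gene, as they were for 5.97% of all tested genes, from 1039 to 1704 CPM for COL2A1, while the highest group was EGR1 for COL2A1, Control for COL9A1, COL9A3 and COL11A1, and KLF4 for COL9A2 and COL11A2.

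COL9A1 encodes the type IX chain whose large amino-terminal domain projects from the fibril. It was at 408 and 238 CPM in the OSR1 libraries, 168 and 146 CPM in the OSR2 libraries, 1949 and 1775 CPM in the EGR1 libraries, 1434 and 1254 CPM in the KLF2 libraries, 1397 and 1106 CPM in the KLF4 libraries, and 2792 and 2824 CPM in the Control libraries. No factor library reached the Control pair, and the OSR1 and OSR2 pairs were below all the others without overlapping each other. The OSR2 mean of 157.0 ± 15.5 CPM was 5.59% of the Control mean of 2808 ± 22.6 CPM, and the OSR1 mean of 323 ± 120 CPM was 11.5% of it (SD, n = 2 each). The log2 fold change was -3.12 (SE 0.24) for OSR1, -4.16 (SE 0.252) for OSR2, -1.06 (SE 0.224) for KLF2 and -1.17 (SE 0.224) for KLF4, with adjusted p-values of 2.1e-05, 3.9e-06, 0.0041 and 0.0024. COL9A1 was the chain with the lowest value in each of these 4 comparisons, and under OSR2 only 0.20% of all tested genes had a lower one. For EGR1 the value was -0.59 (95% interval -1.10 to -0.09), with an adjusted p of 0.056 that just missed the threshold. DESeq2 called it, with an adjusted p of 0.0095, and so did scaling by library totals alone, with 0.034; it was called in 7 of the 19 alternatives, which ran from 0.0012 to 0.20.

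COL9A3, another chain of the same trimer, went with COL9A1. It was at 355 and 206 CPM in the OSR1 libraries, 154 and 137 CPM in the OSR2 libraries, 1310 and 1177 CPM in the EGR1 libraries, 976 and 930 CPM in the KLF2 libraries, 1002 and 819 CPM in the KLF4 libraries, and 1678 and 1708 CPM in the Control libraries. As for COL9A1, every factor library was below both Control libraries, and the 6 groups had the same order, from Control through EGR1, KLF2, KLF4 and OSR1 to OSR2. The share of all tested genes with every factor library below Control was not counted, and the matrix genes COMP and EPYC had that split too. The step from KLF4 to OSR1 was the one called step between neighbours in that order for both genes, in a comparison in which 10.5% of all tested genes were lower with OSR1; in a fit to those 2 groups alone the COL9A3 step was not called (adjusted p = 0.053). Without either OSR1 replicate the COL9A1 step from EGR1 to KLF2 was called as well (0.040 and 0.039). The log2 fold change over Control was -2.59 (SE 0.226) for OSR1, -3.54 (SE 0.236) for OSR2, -0.83 (SE 0.214) for KLF2 and -0.89 (SE 0.215) for KLF4, with adjusted p-values of 4e-05, 6.7e-06, 0.011 and 0.0071. The KLF2 call was lost without KLF2 replicate 2 (adjusted p = 0.062) and the KLF4 call without KLF4 replicate 2 (adjusted p = 0.058), and each held in the other 18 of 19 alternatives. For EGR1 the value was -0.45, with a 95% interval of -0.93 to 0.04 and an adjusted p of 0.12. DESeq2 gave 0.048, one of 4 calls in the 19 alternatives, which ran from 0.0032 to 0.34.

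COL9A2 encodes the remaining type IX chain, the one that carries a glycosaminoglycan side chain. It was at 90.7 and 154 CPM in the OSR1 libraries, 68.3 and 63.2 CPM in the OSR2 libraries, 565 and 430 CPM in the EGR1 libraries, 478 and 477 CPM in the KLF2 libraries, 741 and 583 CPM in the KLF4 libraries, and 316 and 502 CPM in the Control libraries. Both OSR pairs were again below every other library, the EGR1 and KLF2 pairs overlapped the Control pair, and both KLF4 libraries were above it. Its level fell with OSR1, at -1.74 on the log2 scale (SE 0.294, adjusted p = 0.0018), and with OSR2, at -2.64 (SE 0.305, adjusted p = 0.00024). With KLF4 its mean was 162% of Control, and the log2 fold change was 0.70 (SE 0.287, 95% interval 0.04 to 1.35) with an adjusted p of 0.071. This did not pass, but DESeq2 gave 0.012, a fit to the KLF4 and Control libraries alone gave 0.020, and the fit without Control replicate 2 gave 0.030; of the 19 alternatives 6 called it, over a range from 0.012 to 0.34. For EGR1 and KLF2 the values were 0.28 (95% interval -0.37 to 0.94) and 0.22 (95% interval -0.43 to 0.88), and each took a sign below 0 without Control replicate 1.

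COL11A1 encodes the type XI chain that is also used outside cartilage. It was at 2393 and 1966 CPM in the OSR1 libraries, 1656 and 1624 CPM in the OSR2 libraries, 5114 and 4581 CPM in the EGR1 libraries, 3914 and 3724 CPM in the KLF2 libraries, 3748 and 3638 CPM in the KLF4 libraries, and 4968 and 4915 CPM in the Control libraries. Its fitted SE against Control was the smallest of the 6 genes, at 0.103 to 0.106 on the log2 scale, so that smaller changes passed the test. The EGR1 libraries fell on either side of the Control pair, the KLF libraries were all below it, and the OSR libraries were lower still. It was the member least reduced by OSR1 and OSR2, at 44.1% and 33.2% of the Control mean, with log2 fold changes of -1.18 (adjusted p = 1.6e-05) and -1.59 (adjusted p = 1.9e-06). It also fell with KLF2, at -0.37 (adjusted p = 0.012), and with KLF4, at -0.42 (adjusted p = 0.006). The KLF2 call was lost without Control replicate 1 (adjusted p = 0.064) and without KLF2 replicate 2 (adjusted p = 0.054), and held in 17 of 19 alternatives. With EGR1 the value was -0.03, with a 95% interval of -0.26 to 0.20.

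COL11A2, whose chain pairs with that of COL11A1 in cartilage, had the widest spread between replicates. It was at 2.23 and 7.44 CPM in the OSR1 libraries, 3.20 and 2.61 CPM in the OSR2 libraries, 35.3 and 18.4 CPM in the EGR1 libraries, 37.1 and 22.4 CPM in the KLF2 libraries, 60.5 and 42.3 CPM in the KLF4 libraries, and 11.2 and 24.2 CPM in the Control libraries. Both OSR pairs lay below the Control pair, both KLF4 libraries lay above it, and the EGR1 and KLF2 pairs overlapped it. The log2 fold change was -1.88 (SE 0.615, adjusted p = 0.033) for OSR1 and -2.61 (SE 0.64, adjusted p = 0.0098) for OSR2. The OSR1 call was lost without OSR1 replicate 1 (adjusted p = 0.097), without Control replicate 2 (adjusted p = 0.20) and in a fit to the OSR1 and Control libraries alone (adjusted p = 0.12), and held in 16 of 19 alternatives, the lowest at 0.0071. The OSR2 call was lost without Control replicate 2 (adjusted p = 0.061) and without OSR2 replicate 2 (adjusted p = 0.065), and held in 17 of 19. With KLF4 the mean was 290% of Control and the log2 fold change 1.53 (SE 0.593, 95% interval 0.17 to 2.90) with an adjusted p of 0.057, whereas DESeq2 gave 0.042; it was called in 5 of 19 alternatives, from 0.0043 to 0.27. For EGR1 and KLF2 the values were 0.60 (95% interval -0.75 to 1.94) and 0.74 (95% interval -0.60 to 2.09).

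**Figure D2:**
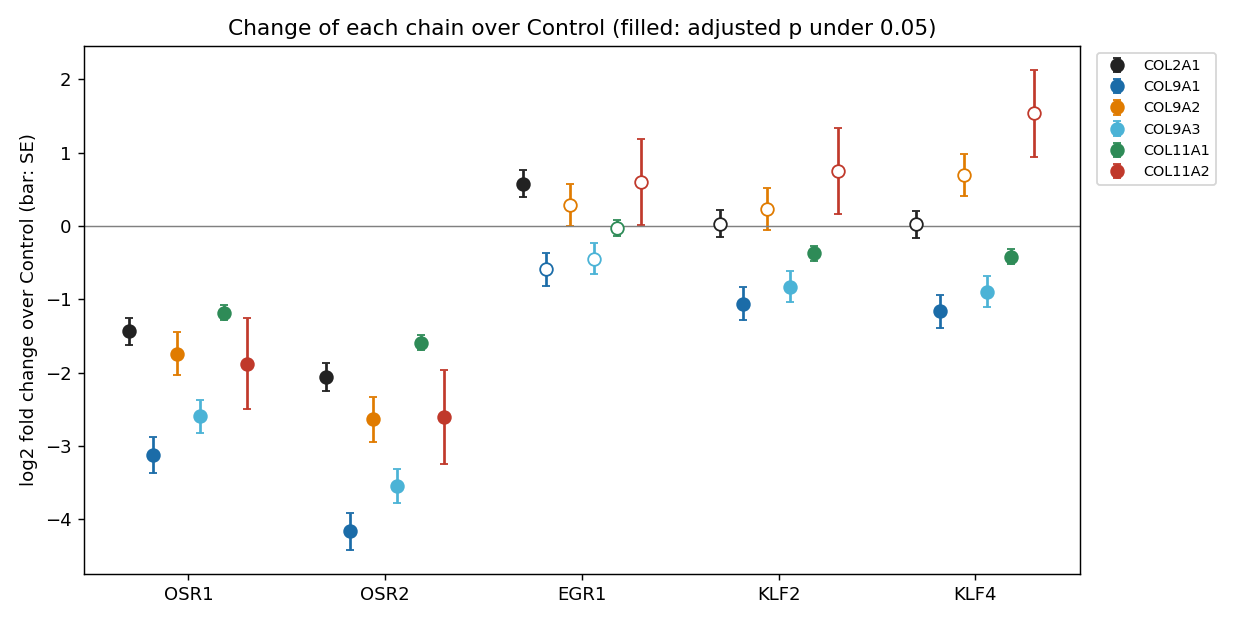
Log2 fold change over Control (vertical axis) of the 6 genes in the OSR1, OSR2, EGR1, KLF2 and KLF4 cultures; points are fitted values over 2 libraries a group, bars are their SE and filled points have an adjusted p under 0.05. All 6 points are filled and below 0 for OSR1 and OSR2, whereas for KLF4 the points run from -1.17 for COL9A1 to 1.53 for COL11A2.

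Counted together, 6 of 6 genes fell with OSR1, where 22.7% of all tested genes fell, and 6 of 6 with OSR2, where 23.0% did. With EGR1, 1 of 6 rose, where 24.6% of tested genes rose, and none of the 6 fell by edgeR's test, where 20.5% of tested genes did. In that comparison 2 of the 6 genes had an unadjusted p under 0.05 and DESeq2 called 3. With KLF2 and with KLF4, 3 of 6 fell, against 23.5% and 25.5% of tested genes. The median log2 fold change of the 6 was -1.81 for OSR1, -2.62 for OSR2, 0.13 for EGR1, -0.17 for KLF2 and -0.20 for KLF4, where the medians over all tested genes were 0.05, 0.04, 0.01, 0.02 and -0.01. Together the 6 genes took 0.499% and 0.424% of all counts in the OSR1 libraries, 0.320% and 0.300% in the OSR2 libraries, 1.02% to 1.58% in the EGR1, KLF2 and KLF4 libraries, and 1.42% and 1.54% in the Control libraries.

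The factor families were also compared without the Control libraries. All 6 genes were lower in the 4 OSR libraries than in the 4 KLF libraries, in a comparison where 15.6% of tested genes were called lower. The log2 difference, OSR minus KLF, was -3.38 (SE 0.456) for COL11A2, -2.65 (SE 0.215) for COL9A2, -2.53 (SE 0.166) for COL9A1, -2.21 (SE 0.158) for COL9A3, -1.77 (SE 0.132) for COL2A1 and -0.99 (SE 0.0738) for COL11A1, with adjusted p-values from 2.6e-06 to 0.00064. COL11A2 had the lowest value here, where COL9A1 had the lowest against Control, while COL9A2 and COL9A1 were closer to each other than their SEs. All 6 genes were higher in the EGR1 libraries than in the OSR libraries, against 8.88% of tested genes, by 1.36 for COL11A1 to 3.05 for COL9A1 on the log2 scale. The COL11A2 value in that comparison, 2.84 (adjusted p = 0.0049), was no longer called without EGR1 replicate 1 (adjusted p = 0.059). EGR1 against the KLF libraries gave 2 calls among the 6, both higher, against 8.07% of tested genes. COL2A1 was higher by 0.55 (SE 0.154, adjusted p = 0.038) and COL11A1 by 0.37 (SE 0.0884, adjusted p = 0.017). Without EGR1 replicate 1 these were 0.34 and 0.29, with adjusted p-values of 0.32 and 0.17; the calls held in 13 and 17 of 19 alternatives, the lowest adjusted p being 0.0038 and 0.00071. The COL11A1 call was also lost without KLF4 replicate 2 (adjusted p = 0.060). COL9A1, at 0.52 (adjusted p = 0.11), was called in 5 of 19 alternatives, by DESeq2 (0.024), in the compared groups alone (0.023), with a replicate block (0.029) and without either OSR1 replicate (0.0060 each). COL9A3, at 0.42 (adjusted p = 0.19), was called in 3, in the compared groups alone (0.033) and without either OSR1 replicate (0.010 each). The COL2A1 call was also lost in a fit to the compared groups alone (adjusted p = 0.060), without either OSR2 replicate (0.061 and 0.060), without KLF2 replicate 2 (0.091) and without KLF4 replicate 2 (0.12).

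Within a family the members could not be separated by edgeR's test. Between OSR1 and OSR2 none of the 6 was called, where 0.0105% of tested genes were called in either direction. The log2 difference, OSR1 minus OSR2, was above 0 for all 6, from 0.41 for COL11A1 to 1.04 for COL9A1, with adjusted p-values from 0.92 to 1. The libraries did not overlap for 5 of the 6, all higher with OSR1, against 12.2% of tested genes with such a split; COL11A2 was the exception. Of the 6, 5 had an unadjusted p under 0.05, and DESeq2 called 3, COL9A1 (adjusted p = 0.00052), COL9A3 (adjusted p = 0.0017) and COL11A1 (adjusted p = 0.036). Without OSR1 replicate 2, edgeR called COL9A1 and COL9A3 as well, at 1.38 and 1.29 (adjusted p = 0.0065 each); each was called in 2 of 19 alternatives, and the highest adjusted p was 1. Between KLF2 and KLF4 none of the 6 was called, none had an unadjusted p under 0.05 and DESeq2 called none, where 2.66% of tested genes were called by edgeR. The 95% interval of the KLF2 minus KLF4 difference was -0.18 to 0.28 for COL11A1 but -2.12 to 0.54 for COL11A2.

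Whether the chains of a type moved apart was tested on the ratio of their counts within each library, in which library size cancels. The ratio depends on the transcripts' lengths, so its height has no meaning here and only its change between groups is used. Of 9 ratios, 4 within a type and 5 over COL2A1, 3 differed between the 6 groups in an exact permutation test over all 10395 ways to pair the 12 libraries, with adjustment over the 9.

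The log2 ratio of COL9A1 to COL9A3 was 0.201 and 0.207 in the OSR1 libraries, 0.128 and 0.0940 in the OSR2 libraries, 0.574 and 0.593 in the EGR1 libraries, 0.556 and 0.432 in the KLF2 libraries, 0.479 and 0.433 in the KLF4 libraries, and 0.734 and 0.725 in the Control libraries. The OSR pairs were lowest and the Control pair highest, with the other factors between them (exact permutation p = 0.00048, adjusted p = 0.0043). The KLF2 libraries lay on either side of the KLF4 pair, so the KLF groups overlapped. COL9A1 thus fell further than COL9A3, but by little: the ratio with OSR2 was 0.651 times that of Control, where the genes themselves were at 5.59% and 8.58% of Control. The ratio of COL9A1 to COL2A1 also differed between groups (exact permutation p = 0.0028, adjusted p = 0.013). Its fold of Control was 0.297 with OSR1, 0.231 with OSR2, 0.445 with EGR1, 0.468 with KLF2 and 0.434 with KLF4, so COL9A1 had the lower ratio to COL2A1 in each factor group; single pairs of groups were not tested, since 2 against 2 libraries cannot go below an exact p of 0.33. This call was lost without the 2 Control libraries (adjusted p = 0.086) and without either OSR2 replicate (0.056 and 0.061).

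The mean ratio of COL11A1 to COL2A1 was above that of Control with the OSR factors and below it with the others, but OSR1 replicate 2, at 0.276 on the log2 scale, lay between the Control libraries at 0.354 and -0.053. The mean was 1.17 and 1.37 times that of Control with OSR1 and OSR2, and 0.657, 0.757 and 0.733 times with EGR1, KLF2 and KLF4 (exact permutation p = 0.010, adjusted p = 0.031). That call did not survive leaving out the 2 Control libraries (adjusted p = 0.081), and it was also lost without either OSR2, either EGR1, either KLF2 or either KLF4 replicate, with adjusted p-values from 0.051 to 0.12.

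In the ratios with COL9A2 and COL11A2 the OSR1 libraries lay far apart. The log2 ratio of COL9A1 to COL9A2 was 2.17 and 0.631 in the OSR1 libraries, 1.30 and 1.21 in the OSR2 libraries, 1.79 and 2.04 in the EGR1 libraries, 1.59 and 1.39 in the KLF2 libraries, 0.914 and 0.924 in the KLF4 libraries, and 3.14 and 2.49 in the Control libraries. Control was the highest pair, but the OSR1 libraries lay on either side of all libraries of the other factors (exact permutation p = 0.075, adjusted p = 0.084). The ratio of COL9A2 to COL9A3 was not called either (exact permutation p = 0.18, adjusted p = 0.18). Leaving out either OSR1 library removes the spread within that group, and with it the adjusted p for COL9A1 over COL9A2 was 0.0035 or 0.0040; over its 14 alternatives, of which these 2 were called, it ran up to 0.52, without the Control libraries. The ratio of COL11A1 to COL11A2 was 1.78 and 1.89 times that of Control with OSR1 and OSR2, and 0.633, 0.442 and 0.244 times with EGR1, KLF2 and KLF4, with an adjusted p of 0.061 (exact permutation p = 0.041). It fell under the threshold in 2 of 14 alternatives, without either OSR1 library (adjusted p = 0.022 and 0.0099), and ran up to 0.20 in the others. Between the 4 OSR and the 4 KLF libraries it was 5.59 times higher with OSR, without overlap. An exact two-sided permutation test of 4 against 4 libraries cannot go below p = 0.029, which is what 5 of the 9 ratios gave, and the adjusted p was then 0.051. It treats the libraries of 2 factors as replicates of a family, so its p does not measure the spread between factors. Of 9 alternatives of this test, leaving out either OSR1 replicate brought the same 5 ratios to an adjusted p of 0.043, as did leaving out OSR1 replicate 2 for COL9A2 over COL2A1 and OSR1 replicate 1 for COL9A3 over COL2A1. The exact p of the 5 stayed at its floor, and their adjusted p fell because a further ratio reached that floor. The COL9A1 to COL9A2 ratio differed by 0.123 on the log2 scale between OSR and KLF (adjusted p = 0.74) and by -0.158 without OSR1 replicate 1.

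**Figure D3:**
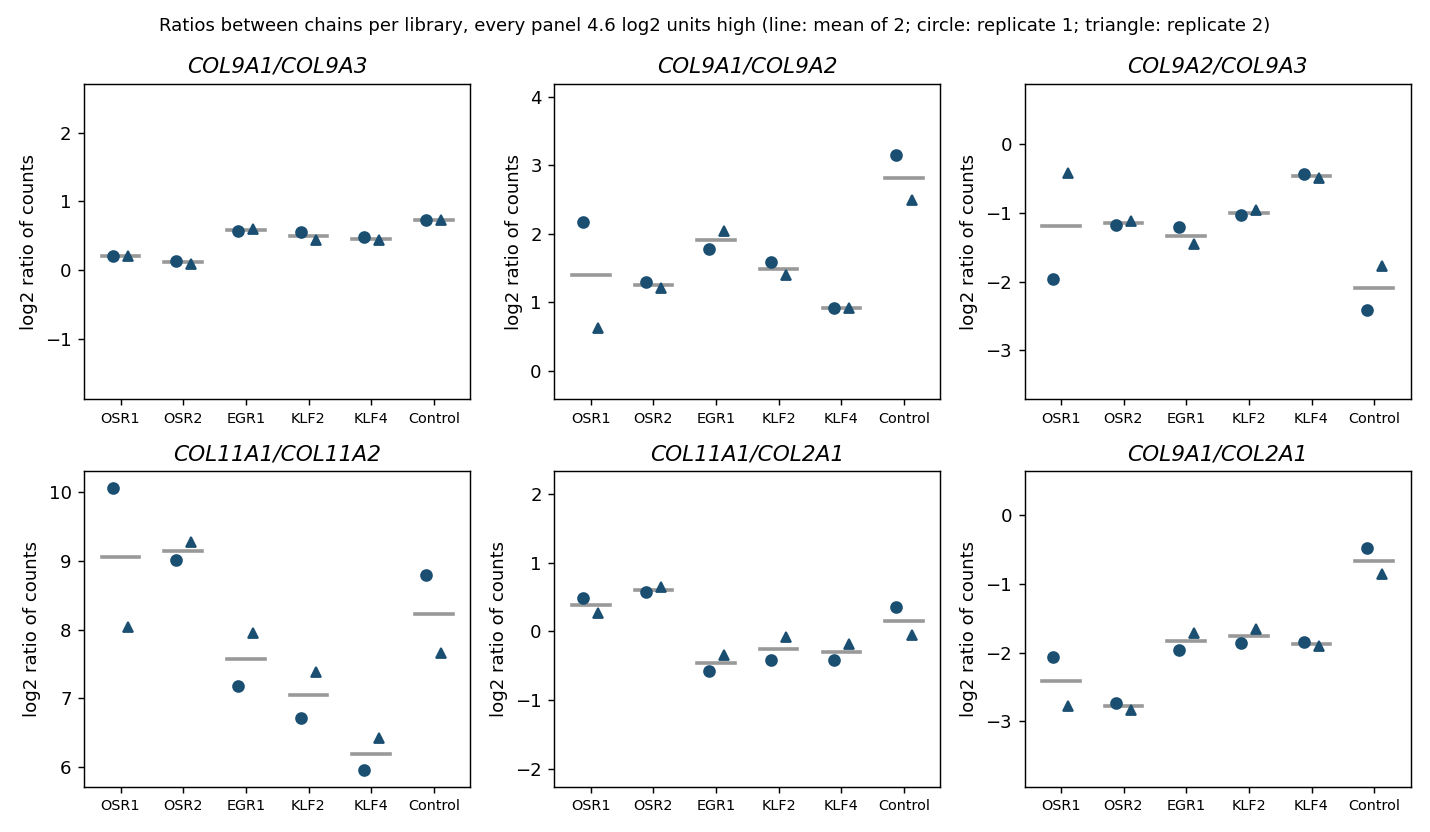
Log2 ratio of counts of 2 chains (vertical axis, each panel 4.6 log2 units high) in the OSR1, OSR2, EGR1, KLF2, KLF4 and Control libraries; circles are replicate 1, triangles replicate 2 and lines the mean of 2. COL9A1/COL9A3 stays within 0.0940 to 0.734 over all 12 libraries, whereas COL11A1/COL11A2 ranges from 5.95 in KLF4 replicate 1 to 10.1 in OSR1 replicate 1.

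The chains also differed in how they varied between replicates. COL11A2 differed between the libraries of a group by a log2 value, replicate 2 over replicate 1, that was 1.74 for OSR1, -0.29 for OSR2, -0.94 for EGR1, -0.73 for KLF2, -0.52 for KLF4 and 1.11 for Control. COL9A2 had the same sign in all 6 groups, with 0.76 in OSR1 and 0.67 in Control as its largest values. Its KLF2 difference, at -0.0023, was so near 0 that its sign there carries little weight. In OSR1 the other type IX genes went the opposite way, with -0.78 for both COL9A1 and COL9A3. COL11A1 stayed within -0.28 to -0.02 in all 6 groups. Among the 11135 genes whose mean reached 5 CPM, 160, or 1.44%, shared the 6 signs of COL11A2, and 19, or 0.171%, also differed by at least 1.5-fold in both OSR1 and Control; these 19 include COL9A2 and COL11A2, which were singled out after their values were seen. The other 17 include the respiratory chain genes COX8A and NDUFB7 and the antioxidant genes GPX1 and SRXN1. Some of the 17 share a sign only through values near 0, as NDUFB7 does in KLF4. A cause for this shared spread was not tested.

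**Figure D4:**
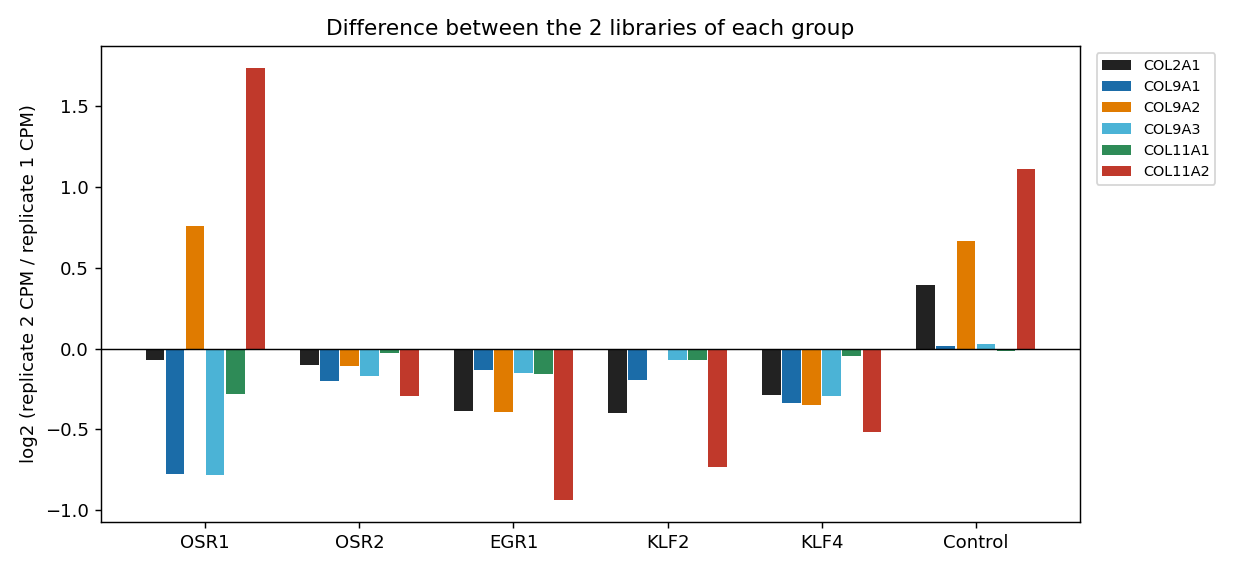
Difference between the libraries of each group, as log2 of replicate 2 CPM over replicate 1 CPM (vertical axis), for the 6 genes in OSR1, OSR2, EGR1, KLF2, KLF4 and Control. COL11A2 and COL9A2 are above 0 in OSR1 and Control and below 0 in the other 4 groups, though COL9A2 in KLF2 is at -0.0023. COL9A1 and COL9A3 are at -0.78 in OSR1.

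Profiles over all 12 libraries were compared by the root mean square difference of log2 CPM, each gene centred on its own mean, among 10633 other genes that have a symbol and reach a mean of 5 CPM. Across the 6, COL9A1 and COL9A3 were the closest pair, 0.215 apart, with 1 of the 10633 genes nearer to COL9A1 and 2 nearer to COL9A3. COL9A2 and COL11A2 were 0.417 apart, closer than COL9A2 was to COL9A1 (0.70) or to COL9A3 (0.592). Differences between replicates enter all these distances, including those that COL9A2 and COL11A2 share in OSR1 and Control. COL11A1 and COL11A2, chains of the same molecule, were the most distant pair at 1.10, with 10344 of the 10633 genes nearer to COL11A1 but 145 nearer to COL11A2. Profiles were not scaled to a common range, so the size of a gene's changes enters these distances as well as their direction. The ratio of these 2 chains did not pass its exact permutation test over the 6 groups (adjusted p = 0.061). Of the genes outside the 6, the nearest to COL2A1 were THBS4, a thrombospondin of the extracellular matrix (0.206), RLBP1, a retinaldehyde-binding protein (0.236), and SOX9 (0.254). For COL9A1 they were the potassium channel gene KCNA3 (0.187), the BMP-family ligand gene GDF10 (0.239) and FGFR3, an FGF receptor of growth plate cartilage (0.257). For COL9A3 they were KCNA3 (0.169), FGFR3 (0.20) and DPYSL4 (0.226). COL9A2 was nearest to the sulfotransferase gene GAL3ST1 (0.295) and to CHAD, which encodes the cartilage matrix protein chondroadherin (0.323). COL11A2 was nearest to the exostosin-like gene EXTL1 (0.387) and to GPR37L1 (0.447). COL11A1 was nearest to FAM101A (0.0812), to SLC35D1, a nucleotide-sugar transporter gene needed for chondroitin sulfate synthesis (0.0872), and to CXXC4 (0.13).

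The transcription factors known to drive these genes also fell in the OSR cultures. All 3 of SOX9, SOX5 and SOX6 fell with OSR1 and with OSR2, where 22.7% and 23.0% of all tested genes fell. The summed levels of the 3 were 174 to 200 CPM in OSR1, 132 to 149 CPM in OSR2 and 493 to 497 CPM in Control. SOX9 changed by -1.42 and -1.89 on the log2 scale with OSR1 and OSR2, and SOX6 by -2.40 and -2.82. With KLF2 and KLF4, SOX5 and SOX6 fell and SOX9 was not called, at -0.30 and 0.06. With EGR1 none of the 3 was called by edgeR's test; DESeq2 and scaling by library totals alone each called 1 lower. The part of these factors in the collagen changes was not tested.

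Of 11 other cartilage matrix genes, 10 fell with OSR1 and 10 with OSR2, and FMOD, which encodes the fibril-binding proteoglycan fibromodulin, was not called in either. Their median log2 fold change was -2.11 and -2.36, where over all tested genes it was 0.05 and 0.04. EPYC, for the cartilage proteoglycan epiphycan, had log2 fold changes of -3.74 and -4.45, and MATN1, for the cartilage protein matrilin-1, of -2.65 and -4.14. With EGR1, 5 fell and 1 rose; with KLF2, 7 fell and 3 rose; and with KLF4, 6 fell and 3 rose. Over all tested genes 28.4% rose with OSR1, 28.9% with OSR2, 24.6% with EGR1, 28.1% with KLF2 and 28.7% with KLF4, and 22.7%, 23.0%, 20.5%, 23.5% and 25.5% fell in the same order, so the 3 of 11 that rose with each KLF factor are near the share of all genes. MATN4 was among those that rose with all of these, by 0.68, 1.05 and 0.82. CHAD, near COL9A2 in profile, fell with OSR1 and OSR2, at -2.01 and -2.36, and rose with KLF4, at 0.66.

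The other fibril-forming collagens included genes that rose and genes that fell. Of 7 measured, COL1A1, COL1A2 and COL3A1 rose with all 5 factors, COL1A1 by 1.49 with OSR1 and up to 2.09 with KLF4. All 5 comparisons share the Control libraries, so a call with all 5 is not 5 separate results. The share of all tested genes called alike with all 5 was not counted, here or in the later paragraphs. COL5A1, whose chain can replace that of COL11A1 in type V/XI molecules, was not called with OSR1, OSR2 or EGR1 and rose with KLF2 by 0.33 and with KLF4 by 0.46. COL5A2, the type V partner chain, rose with OSR1, OSR2 and EGR1 by 0.47, 0.36 and 0.38. COL27A1, a fibrillar collagen of cartilage, had log2 fold changes of -1.60, -2.05, -0.07, -0.47 and -0.44 for OSR1, OSR2, EGR1, KLF2 and KLF4, with EGR1 the one not called. COL24A1 fell with all 5, from -0.97 with EGR1 to -1.76 with OSR2. Of 7 other fibril-associated collagens, relatives of type IX, 2 fell and 1 rose with OSR1 and 3 fell and 1 rose with OSR2, where 22.7% and 23.0% of all tested genes fell, so the OSR1 count is near that share. With EGR1 3 fell and 1 rose, with KLF2 4 fell and none rose, and with KLF4 4 fell and 1 rose. Over all tested genes 20.5%, 23.5% and 25.5% fell with these factors, and 24.6%, 28.1% and 28.7% rose. COL20A1, the one that rose with OSR1 and OSR2, by 0.78 and 0.85, fell with KLF2 and KLF4, at -0.84 and -1.20.

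Genes that fold and modify procollagen included both rises and falls. Of 16, 7 fell and 4 rose with OSR1, 9 fell and 4 rose with OSR2, 4 fell and 5 rose with EGR1, and 7 fell and 7 rose with each of KLF2 and KLF4. Against the shares of all tested genes given with the matrix genes, the rises with OSR1 and OSR2 and both counts with EGR1 were near the background. SERPINH1, the collagen-specific chaperone HSP47, fell with every factor, with log2 fold changes from -1.10 for EGR1 to -1.62 for OSR2. The prolyl 4-hydroxylase subunit genes P4HA1 and P4HA2 and the lysyl hydroxylase gene PLOD2 also fell with all 5, from -0.71 for PLOD2 with EGR1 to -1.75 for P4HA2 with OSR2. P4HA3, P3H1, PPIB and FKBP10, also among the 16, rose with all 5. Between the OSR and KLF libraries none of these was called, at 0.16, -0.06, 0.11 and -0.19. Scaling by library totals alone gave 7 falls with EGR1 in place of 4.

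Of 7 genes for cleavage of the propeptides, 3 rose and 3 fell with OSR1 and 2 rose and 2 fell with OSR2. With EGR1 3 rose and 1 fell, with KLF2 4 rose and 2 fell, and with KLF4 5 rose and 2 fell. Both OSR2 counts and the falls with EGR1, KLF2 and KLF4 were near the shares given with the matrix genes. BMP1 and TLL1, both C-proteinases, rose with all 5 factors, TLL1 by 1.75 and 1.77 with OSR1 and OSR2. PCOLCE2, an enhancer of that cleavage, fell with all 5, from -0.71 with EGR1 to -1.23 with KLF4. ADAMTS3 fell with OSR1, OSR2, KLF2 and KLF4, from -0.34 with OSR1 to -0.81 with KLF4. Of 5 lysyl oxidase genes, whose products cross-link fibrils, all 5 rose with EGR1, KLF2 and KLF4. Of all tested genes 24.6%, 28.1% and 28.7% rose with these factors. LOX, LOXL1 and LOXL2 rose with OSR1 and OSR2 too. LOXL4 differed most between factors, with -0.86 for OSR1 (not called), a called -1.37 for OSR2, and rises of 1.66, 3.24 and 4.13 for EGR1, KLF2 and KLF4.

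**Figure D5:**
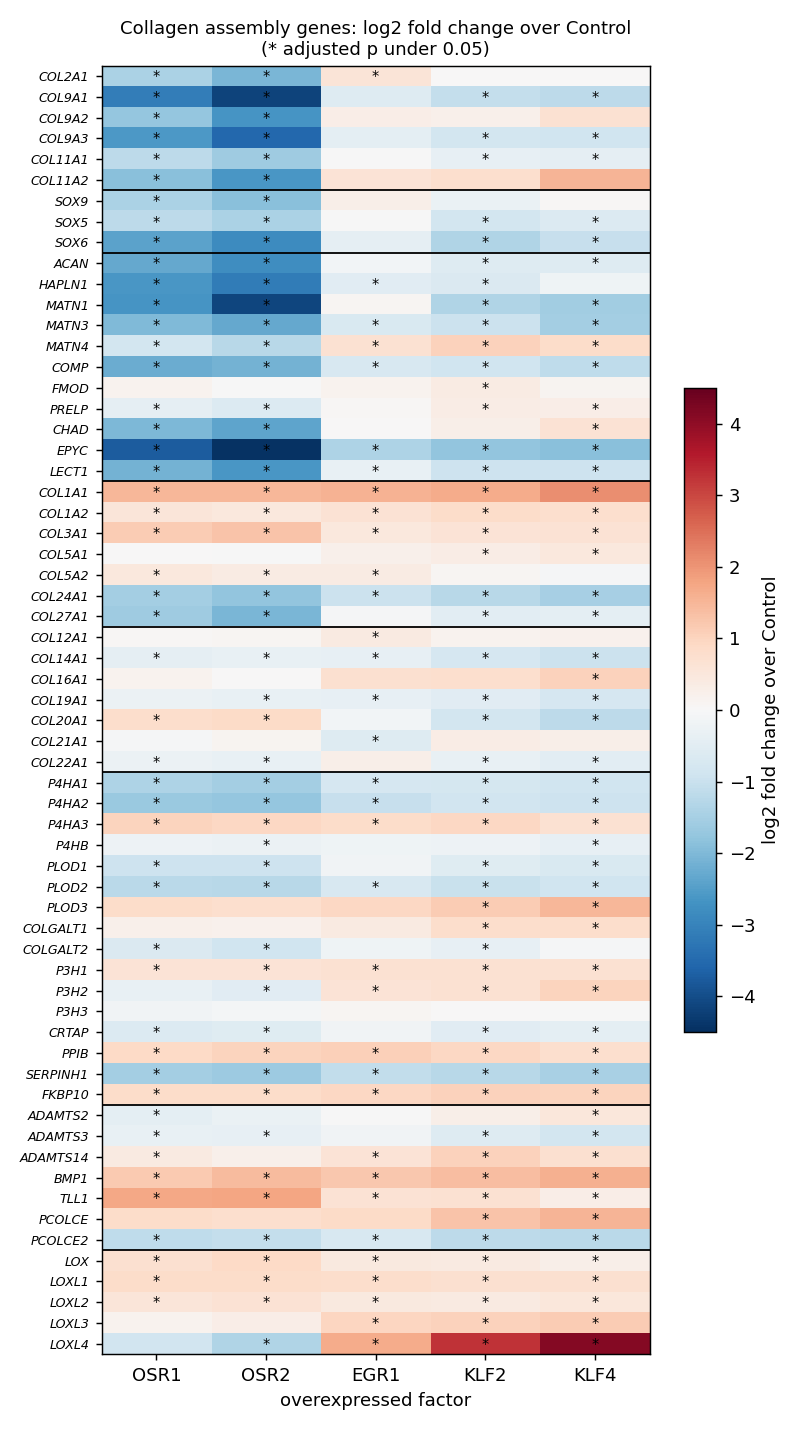
Log2 fold change over Control (colour, blue lower and red higher) of the 6 cartilage collagens and of genes for their transcription, matrix partners, relatives, folding, cleavage and cross-linking (vertical axis, groups set apart by lines) for the OSR1, OSR2, EGR1, KLF2 and KLF4 cultures; a star marks an adjusted p under 0.05. The cartilage genes in the upper groups are mostly blue under OSR1 and OSR2, down to -4.45 for EPYC, while COL1A1 is red in all 5 columns and LOXL4 reaches 4.13 under KLF4.

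Markers of other cell types moved in the same libraries. Against Control, 24.6% to 28.9% of all tested genes rose and 20.5% to 25.5% fell. A single call in a list of 4 or 5 markers is thus near that share. All 4 smooth muscle markers rose with OSR1, OSR2, EGR1 and KLF2 and 3 of 4 with KLF4. Their summed level was 2230 to 2370 CPM in OSR1, 2380 to 2790 CPM in OSR2, 1560 to 1610 CPM in EGR1, 1530 to 1950 CPM in KLF2, 1480 to 1530 CPM in KLF4 and 786 to 917 CPM in Control, and none of the 4 was at 0 in every library. All 5 markers of hypertrophic cartilage fell with OSR1 and OSR2, to sums of 26.6 to 27.4 CPM and 22.9 to 23.6 CPM, against 71.0 to 80.8 CPM in Control. In OSR1 and OSR2 IHH had means of 0.949 and 0.658 CPM and IBSP of 0.145 and 0.176 CPM, so both add little to the sums. With EGR1 1 of the 5 fell, and with each KLF factor 2 rose and 1 fell. Of the 8 skeletal muscle markers 7 were tested, and the sum was 869 to 892 CPM in OSR1, 868 to 891 CPM in OSR2, 750 to 799 CPM in EGR1, 610 to 654 CPM in KLF2, 533 to 535 CPM in KLF4 and 831 to 899 CPM in Control. Among the 7, 2 rose and 1 fell with each OSR factor. Of all tested genes 28.4% rose with OSR1 and 28.9% with OSR2, so these rises are near that share. With EGR1 1 rose and 4 fell, and with each KLF factor 1 rose and 5 fell. Of the 8 limb mesenchyme markers, 3 rose with OSR1, 4 with OSR2, EGR1 and KLF4 and 5 with KLF2, and none fell. Endothelial markers summed to at most 80.1 CPM in OSR1, OSR2, EGR1 and KLF2, 155 to 159 CPM in KLF4 and 118 to 124 CPM in Control, and 3 of 4 rose with KLF2 and with KLF4. The fourth, PECAM1, fell with all 5 factors, with means of 52.0 CPM in OSR1, 59.3 CPM in OSR2, 49.8 CPM in EGR1, 47.3 CPM in KLF2, 42.8 CPM in KLF4 and 107 CPM in Control. Of 4 macrophage markers 3 rose with OSR1, OSR2 and KLF2 and 2 with EGR1, where 1 fell, and with KLF4; they summed to 22.0 to 24.6 CPM in the OSR libraries, 16.3 to 20.2 CPM in the EGR1, KLF2 and KLF4 libraries and 14.2 to 14.6 CPM in Control. Of 5 epidermal markers 3 rose with KLF4, with sums of 53.6 to 67.3 CPM in KLF4, 19.4 to 45.7 CPM in the other factor libraries and 19.4 to 21.2 CPM in Control. The part of these cell types in the collagen results was not tested.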

How the data were processed

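Each of 12 libraries, 2 in each of 6 groups taken from the sample titles, has a deposited list of counts per gene, whole numbers that the authors left unnormalised. Per the labels' protocols, libraries were strand-specific poly(A) libraries read in pairs. TopHat2, SAMtools, featureCounts, DESeq2 and the build galGal4 appear, without versions or roles, in the submitters' processing notes. The annotation, counting strand and treatment of reads matching several genes are not given in the sources read, so genes with close paralogs are uncertain. Gene names are those of the files. A RefSeq table of another build matched 5 of the 6 symbols (not COL11A2) and was used for nothing else, and no gene lengths or sequences were used here.

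Counts were fitted in R 4.3.3 with edgeR 4.0.16 (limma 3.58.1): filterByExpr with minimum count 10, TMM scaling (factors 0.9521 to 1.041), 1 term per group over 12 libraries, robust glmQLFit with 6 residual degrees of freedom, and two-sided quasi-likelihood F tests adjusted by Benjamini-Hochberg over 18979 features. Where no other tool is named, a gene's adjusted p comes from this test. The alternatives included DESeq2 1.42.0, no filter, library totals alone, the compared groups only, a replicate block and leaving out each library. A prior without the robust option and ratios without Control were added after seeing the data. Ratio tests, distances and figures used Python 3.11.15 and matplotlib 3.10.9; profiles used log2(CPM + 0.5).

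Named genes are the 6, the genes of 14 pathway and marker lists, and the 3 genes nearest to each of the 6 in profile, of which some are not reported here. The members and lists were chosen with earlier results of these data known. Replicate libraries were further apart than counting noise (chi-square per degree of freedom 13.2 to 88.3). The labels do not say how far replicates were separate in origin, so the p-values refer to the spread among these 12 libraries only.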

Additional observations from a re-analysis of the deposited data

How the results depend on the processing

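Directions of called members held under DESeq2, no low-count filter, library totals alone, the compared groups only, a prior without the robust option, the replicate block and each left-out library, and the lost calls are given with the results. With 2 libraries a group, a group that loses one is assumed to vary like the others. The smallest count of a member in any library was 215, so counting error was small beside the spread between libraries. The number of genes called between OSR1 and OSR2 was 2, but 35 by DESeq2 and 5 with a replicate block, and 2 to 103 on leaving out a library, with 103 without OSR1 replicate 1. Between KLF2 and KLF4 it was 505, but 781 by DESeq2, 258 in the compared groups only and 93 to 662 on leaving out a library. Leaving out a library moved the counts against Control to 5807 to 10144 for OSR1, 6362 to 10230 for OSR2, 4597 to 9012 for EGR1 and 6303 to 10107 for KLF2, with the lowest without Control replicate 1, or for EGR1 without EGR1 replicate 1 (4698 without Control replicate 1). For EGR1 against the OSR libraries the counts were 1835 to 3575, and against the KLF libraries 1590 to 3057.

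Correlations between the deviations of same-numbered libraries ran from -0.389 to 0.377 (15 correlations, 4 over 0.1). They show no pairing common to all groups but cannot exclude one, so the main fit used none. The replicate block called COL9A1 for EGR1 against Control (adjusted p = 0.015) and against the KLF libraries (0.029), and changed no other call of a member.

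By library totals alone COL2A1 took the opposite sign for KLF2 against KLF4 (-0.00025), KLF2 against Control (-0.0283) and KLF4 against Control (-0.0281), all near 0. On leaving out a library, uncalled log2 values changed sign within these ranges: COL11A2 -0.39 to 1.35 for OSR1 against OSR2; for EGR1 against KLF2 COL9A2 -0.15 to 0.24 and COL11A2 -0.69 to 0.30; for EGR1 against Control COL9A2 -0.0095 to 0.66 and COL11A1 -0.10 to 0.054; for EGR1 against the KLF libraries COL9A2 -0.39 to 0.0074. For KLF2 against KLF4 they were COL2A1 -0.25 to 0.19, COL9A1 -0.055 to 0.28, COL9A3 -0.072 to 0.22 and COL11A1 -0.028 to 0.085. Against Control, COL2A1 ran from -0.22 to 0.24 and COL9A2 from -0.069 to 0.60 for KLF2, and COL2A1 from -0.16 to 0.23 for KLF4.

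The adjusted p of ratios over the 6 groups ran, on leaving out a library, from 0.0035 to 0.32 for COL9A1/COL9A2, 0.004 to 0.43 for COL9A2/COL9A3, 0.0099 to 0.20 for COL11A1/COL11A2, 0.0071 to 0.061 for COL9A1/COL2A1, 0.0056 to 0.20 for COL9A2/COL2A1, 0.0073 to 0.12 for COL9A3/COL2A1, 0.029 to 0.12 for COL11A1/COL2A1 and 0.004 to 0.24 for COL11A2/COL2A1; without the 2 Control libraries it was 0.086 for COL9A1/COL2A1 and 0.081 for COL11A1/COL2A1. The log2 ratio difference of OSR minus KLF libraries ran from -0.16 to 0.36 for COL9A1/COL9A2, -0.33 to -0.29 for COL9A1/COL9A3, 2.16 to 2.84 for COL11A1/COL11A2, -0.96 to -0.71 for COL9A1/COL2A1, -1.08 to -0.81 for COL9A2/COL2A1, -0.63 to -0.39 for COL9A3/COL2A1, 0.72 to 0.84 for COL11A1/COL2A1 and -1.99 to -1.39 for COL11A2/COL2A1.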
